A study of Mus musculus with 4 samples.

Results

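Nuclear genes for the machinery that imports proteins into mitochondria were examined in direct RNA nanopore reads of mouse embryonic stem cells, in which the poly(A) tail of each single RNA molecule is measured together with its sequence. The members were the gene symbols that begin with Timm or Tomm followed by a digit, with Samm, or with Pam1, leaving out pseudogenes. The rule found 26 of the 13831 symbols in the table, and none of the 26 was a pseudogene. Together they held 8700 of 1903919 reads, or 0.457%. Both groups were J1 embryonic stem cells grown in serum with LIF (leukemia inhibitory factor). The first was wild type (WT) and the second was a knockout of Mov10 (KO), an RNA helicase, with 2 libraries each, called WT 1, WT 2, KO 1 and KO 2. The series was made to compare tail lengths between these genotypes. Whether the KO libraries came from 1 clone, and whether the 2 libraries of a genotype came from separate cultures, is not given in the sources used here, so the p-values measure only the spread between these libraries.

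Most mitochondrial proteins are made in the cytosol from nuclear genes and enter the organelle through protein translocases. The translocase of the outer membrane (TOM) is the common entry gate, with receptors, a pore and small subunits. The sorting and assembly machinery (SAM) folds barrel proteins into the outer membrane, and small TIM chaperones escort hydrophobic cargo across the intermembrane space. In the inner membrane the TIM22 complex inserts carrier proteins, and the TIM23 complex passes precursors with a targeting presequence to the matrix, where an import motor pulls them in. A poly(A) tail is added to the 3′ end of a messenger RNA (mRNA) in the nucleus and is shortened in the cytoplasm, so its length reflects both processes.

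The libraries held from 351133 to 683239 reads with a tail length above 0, and the 26 genes had from 1651 to 2967 of them. Mov10 had 26 and 14 reads in WT 1 and WT 2 and 0 and 1 read in KO 1 and KO 2; a count of 0 in KO 1 allows up to 4.39 reads per 1000000 (RPM; a floor of 3 reads), and the exact 95% binomial interval in KO 2 reached 12.96 RPM, both covering counting error only. The stem cell label was checked with 9 marker genes, which summed to 9494.1 and 9600.4 RPM in WT and to 8225.5 and 7190.5 RPM in KO. Both KO libraries were lower, and the part of this in the results was not tested. Dppa5a alone gave 4950.7 and 5624.6 RPM in WT and 4973.4 and 4058.0 RPM in KO. Single markers moved unevenly: Zfp42 and Klf4 were lower in both KO libraries, whereas Utf1 was highest in KO 2. All 6 markers of fibroblast feeder cells had 0 reads in every library, and 8 markers of differentiating cells summed to at most 8.54 RPM.

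The mRNAs of the import machinery did not carry one common tail length. A median tail could be given in all libraries for 18 genes, those reaching 20 reads per library, and the averages of these medians over the 4 libraries ran from 85.5 nt for Timm23 to 114.5 nt for Tomm6. The small TOM subunits and the TOM receptors Tomm20 and Tomm22 had the longest tails, and Timm23, Samm50, Timm50 and Tomm40 had the shortest. Among all 1935 genes with that many reads, the median of the same average was 105.8 nt, and the 10th and 90th percentiles were 90.4 and 126.2 nt. The median over the 18 genes was 103.6 nt; 4 of them lay under the 10th percentile and 0 over the 75th. In each library the median over the 18 genes was below that over all genes. In WT 1 it was 98.1 against 102.1 nt, and in WT 2 107.0 against 109.3 nt. In KO 1 it was 103.5 against 110.0 nt, and in KO 2 95.4 against 102 nt. This holds when each gene counts once. When each read counts once, with all 26 genes and all reads of the libraries included, the direction was the opposite in each library, as given below.

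Part of the pairs kept their order between libraries. Of the 153 pairs that 18 genes make, 58 were in the same order in all 4 libraries, and in 26 pairs the lowest library of one gene was above the highest library of the other. How many pairs would do so by chance, or among all tested genes, was not computed. No neighbours in the order were separated in this way: the ranges overlapped in all 17 neighbouring pairs. As examples taken from near the ends of this order, Tomm5 had longer tails than Timm23 by 27.0 nt ± 5.21 (SD, n = 4), and Tomm6 exceeded Timm50 by 25.5 nt ± 3.34 (SD, n = 4). Tomm5 was the only one of the 18 above the library's median gene in all 4 libraries, by 6.61 nt ± 1.32 (SD, n = 4). Timm23, Samm50, Timm50, Tomm40 and Timm17a were below it in all 4. Of all tested genes, 22.7% were above and 22.6% below in all 4 libraries.

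**Figure D1:**
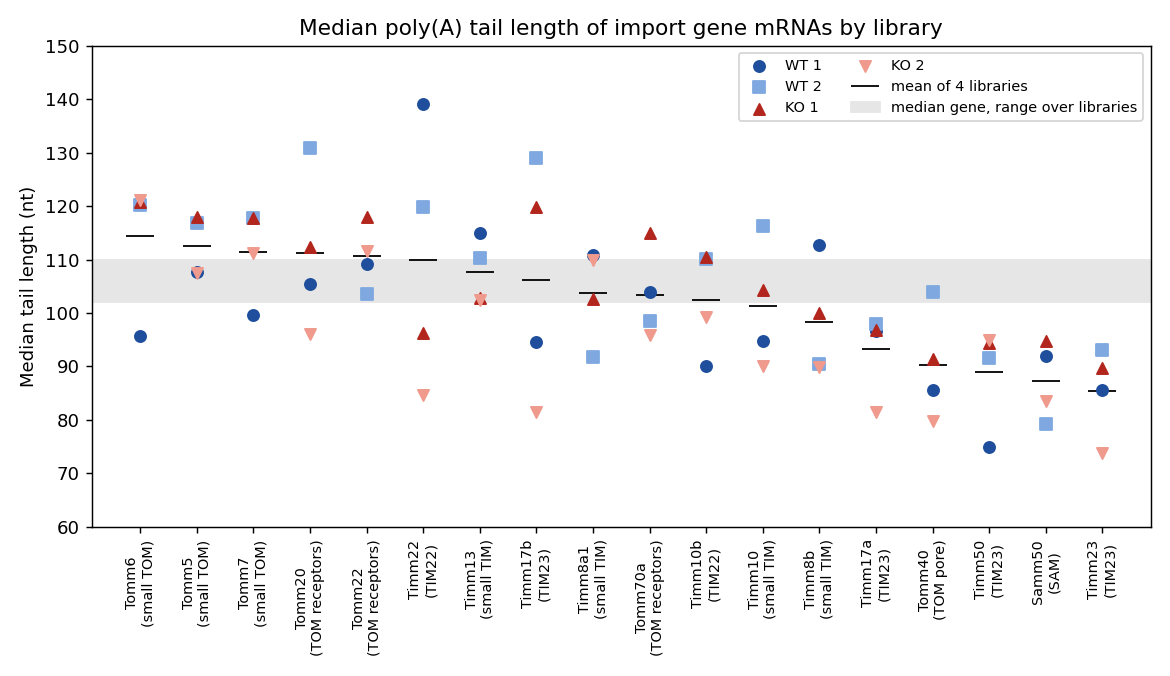
Median tail length in nt (vertical axis) of the 18 import genes with at least 20 reads in each library, ordered by the mean over libraries (black dash), with 1 point for each library and the part of the machinery in brackets. The grey band is the range over libraries of the median gene, from 102 to 110.0 nt; Timm23, Samm50, Timm50, Tomm40 and Timm17a lie below it except that Tomm40 in WT 2 is at 103.9 nt.

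At the outer membrane, the receptor Tomm20 (ENSMUSG00000093904.2), which recognises presequences, had median tails of 105.4 nt in WT 1, 130.9 nt in WT 2, 112.3 nt in KO 1 and 96.2 nt in KO 2. WT 2 was the highest library and KO 2 the lowest, and the genotypes overlapped. Tomm22, the central receptor that also holds the complex together, had 109.2 and 103.5 nt in WT and 117.9 and 111.7 nt in KO, with both KO libraries above both WT libraries. Tomm70a, the receptor for carrier precursors bound to cytosolic chaperones, had 103.9 and 98.5 nt in WT and 114.9 and 96.0 nt in KO. Its KO libraries lay on either side of the WT libraries.

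The small TOM subunits help to assemble and stabilise the gate, and their 3 mRNAs lay next to each other at the top of the order. Tomm5 had 107.6 and 116.9 nt in WT and 117.9 and 107.5 nt in KO. Tomm6 had 95.8 and 120.3 nt in WT and 120.7 and 121.1 nt in KO, so WT 1 stood apart below the other libraries, which were close together. Tomm7 had 99.6 and 117.7 nt in WT and 117.8 and 111.2 nt in KO, again with WT 1 lowest. The pore itself, Tomm40 (ENSMUSG00000002984.17), had shorter tails of 85.5 and 103.9 nt in WT and 91.5 and 79.9 nt in KO. Within every library Tomm40 was below Tomm5, Tomm6 and Tomm7.

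Samm50 (ENSMUSG00000022437.7), the core of the assembly machinery for barrel proteins, had 92.0 and 79.2 nt in WT and 94.7 and 83.4 nt in KO. Like Tomm40, itself a barrel protein, it lay below the median gene in every library. Among the small TIM chaperones, Timm13 had 115.0 and 110.3 nt in WT and 102.8 and 102.4 nt in KO, with both KO libraries below both WT libraries. Timm8a1, which pairs with Timm13, and its paralog Timm8b had 110.8, 91.8, 102.7 and 109.9 nt, and 112.8, 90.4, 100 and 89.9 nt, in WT 1, WT 2, KO 1 and KO 2. Timm10, a chaperone for carrier proteins, had 94.8 and 116.3 nt in WT and 104.3 and 90 nt in KO. The genotypes overlapped for these last 3 genes.

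In the inner membrane, Timm22 (ENSMUSG00000020843.15), the channel that inserts carriers, differed most between libraries: it had 139.2 and 119.8 nt in WT and 96.2 and 84.7 nt in KO. It rested on 29, 20, 41 and 47 reads in the order WT 1, WT 2, KO 1, KO 2. The exact 95% intervals of its medians were 94.3 to 152.7 nt in WT 1, 87.2 to 138.8 nt in WT 2, 84.8 to 122.9 nt in KO 1 and 76.1 to 108.9 nt in KO 2, so they overlapped although the medians did not. Timm10b, its small TIM partner, had 90.1 and 110.1 nt in WT and 110.4 and 99.2 nt in KO, and its genotypes overlapped.

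Timm23 (ENSMUSG00000013701.13), the channel-forming subunit for presequence proteins, had 85.5 and 93.0 nt in WT and 89.7 and 73.7 nt in KO, on 157 to 227 reads. It had the lowest average of the 18 genes, at the 4.34th percentile of all tested genes. Timm50, its receptor on the side of the intermembrane space, had 74.9 and 91.5 nt in WT and 94.5 and 94.9 nt in KO, both KO libraries being higher. The paralogs Timm17a and Timm17b, alternative subunits beside Timm23, had 96.7, 97.9, 96.8 and 81.6 nt, and 94.6, 129.1, 119.9 and 81.4 nt, in the same order of libraries. Timm17a lay below Timm17b in WT 2 and KO 1 and slightly above it in WT 1 and KO 2, so the paralogs did not differ beyond their spread. As a group, the 4 measured TIM23 genes had library medians of 90.03, 95.45, 95.65 and 81.5 nt, against 99.6, 117.7, 117.9 and 111.2 nt for the 3 small TOM genes. The small TOM genes were higher in each of the 4 libraries. These groups had the longest and the shortest averages among those with more than 1 measured gene. Between them lay the TIM22 genes, the TOM receptors and the small TIM genes, with averages of 106.2, 105 and 102.9 nt.

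The other 8 members had fewer than 20 reads in at least 1 library and are described by their reads only. Pam16, a subunit of the import motor, had from 14 to 43 reads, and Timm44, which anchors the motor at the channel, had from 13 to 36. Tomm40l, a paralog of the pore, had from 15 to 33 reads, Timm9, the partner of Timm10, from 8 to 30, and the cytosolic protein Tomm34 from 4 to 23. Timm29 and Timm21, subunits of TIM22 and TIM23, had at most 11 and 9 reads. Timm8a2, a paralog of Timm8a1, had 4, 5, 1 and 0 reads; in KO 2, 0 of 430012 reads allow up to 6.98 RPM by the same floor of 3 reads.

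Single molecules of 1 gene varied more than the medians of different genes. The width between the 25th and the 75th percentile of a gene's reads, averaged over libraries, ran from 59.97 nt for Tomm7 to 94.4 nt for Timm10. Tomm20 had a width of 90.5 nt and the largest average share of long tails among the 18 genes: 29.97, 40.2, 31.1 and 23.7% of its reads were of 150 nt or more in WT 1, WT 2, KO 1 and KO 2. Timm23 had 15.6, 18.5, 16.7 and 8.62% such reads, and its share of short tails under 30 nt was 7.19, 7.01, 4.85 and 7.47%. Timm13 had the smallest average share of short tails, with 0, 0, 0.948 and 0.662%, although its share of long tails was also low, at 14.6% on average. Timm22 had 41.4 and 25.0% long tails in WT and 14.6 and 14.9% in KO.

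**Figure D2:**
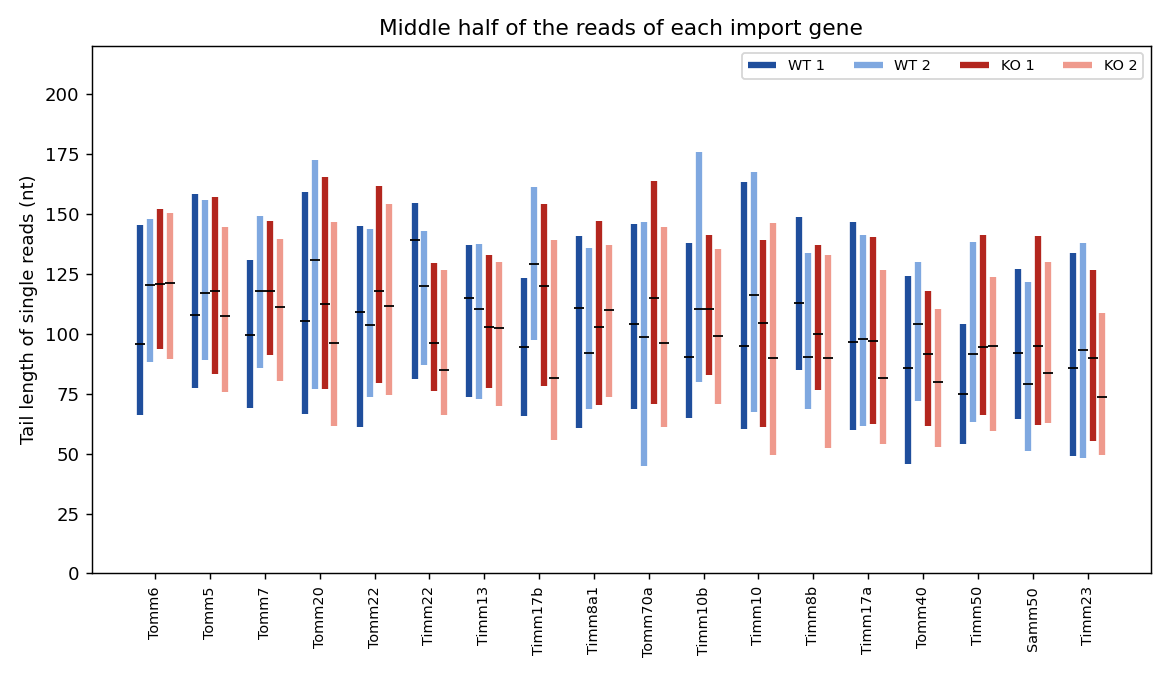
Tail length of single reads in nt (vertical axis) for the 18 import genes in the order of their mean: bars run from the 25th to the 75th percentile of the reads in each library, and black dashes are medians. The bars of all genes overlap, and their mean width runs from 59.97 nt (Tomm7) to 94.4 nt (Timm10).

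Over the reads of all 26 genes together, the median tail was 99.9 and 109.4 nt in WT and 110.3 and 100 nt in KO. Tomm20 and Tomm7 gave 1382 and 1126 of these 8700 reads. Over all reads of the libraries the medians were 97.3 and 105.6 nt in WT and 105.8 and 98.1 nt in KO. These were likewise higher in WT 2 and KO 1. By reads, the import genes thus lay above the whole library in each library, whereas by gene medians they lay below it. Of the reads of the 26 genes, short tails under 30 nt made up 2.94 and 3.45% in WT and 1.65 and 3.64% in KO. Long tails of 150 nt or more made up 21.1 and 25.0% in WT and 23.9 and 18.9% in KO. The genotypes overlapped in both classes. The KO means differed from the WT means by -0.547 percentage points for short tails and by -1.68 for long tails, with a spread between replicates of 1.03 and 3.18 points (SD). Two-sided exact permutation over the libraries gave p = 1 and 0.667, where 2 libraries against 2 cannot go below 0.33. The difference in short tails was 0.449 without KO 1 and -1.54 without KO 2, and that in long tails was -4.17 without KO 1 and 0.819 without KO 2, so single libraries decided the sign.

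Read number was used as the measure of RNA level; in such bulk samples, fewer cells of a type and less RNA per cell cannot be told apart. A direct RNA read is 1 molecule read from its 3′ end, so levels were not divided by transcript length; they are given as RPM after median-of-ratios scaling (scaled RPM), which equalises the typical gene between libraries. By symbol, Tomm20 had the highest average level of the 26 mRNAs, with 925.2 and 678.0 scaled RPM in WT and 606.4 and 763.4 in KO, followed by Tomm7 with 632.8, 566.9, 619.3 and 522.9; Tomm7 was above Tomm20 in KO 1. Tomm6 would rank higher if the reads that carry the symbol Gm21981 on its transcripts were its own: with them it had 579.8, 761.4, 652.1 and 728.1 scaled RPM, above Tomm20 in WT 2 and KO 1. Timm23 and Tomm6 came next, with averages of 391.3 ± 50.0 and 385.7 ± 49.7 scaled RPM (SD, n = 4), which do not differ beyond that spread. Only 2 of the 25 neighbouring pairs in this order had ranges that did not overlap, Tomm7 above Timm23 and Tomm5 above Samm50.

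Genes whose proteins work in 1 complex had unequal levels. The small TOM genes Tomm7, Tomm6 and Tomm5 averaged 585.5, 385.7 and 230.3 scaled RPM by symbol (Tomm6 with Gm21981 averaged 670.6 in WT and 690.1 in KO, above Tomm7), whereas the pore Tomm40 averaged 134.1 ± 35.6 (SD, n = 4). Timm13 averaged 306.4 scaled RPM, and was above Timm8b (159.7) and its partner Timm8a1 (142.6) in every library. Timm10 was likewise above its partner Timm9 in every library, with averages of 78.4 and 39.9. Of the paralog pairs, Timm17a ranged from 242.0 to 319.6 scaled RPM and Timm17b from 62.8 to 161.3, and Tomm40 from 100 to 176.5 against 33.1 to 47.1 for Tomm40l. In both pairs the ranges were apart. Across the 18 genes with a tail value, Spearman's rho between tail length and level was 0.286 and Pearson's r on log2 scaled RPM was 0.239 (n = 18 genes from the same 4 libraries). Over all 1935 genes rho was -0.0998. Whether the value of the 18 genes differs from 0 or from that of all genes was not tested.

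**Figure D3:**
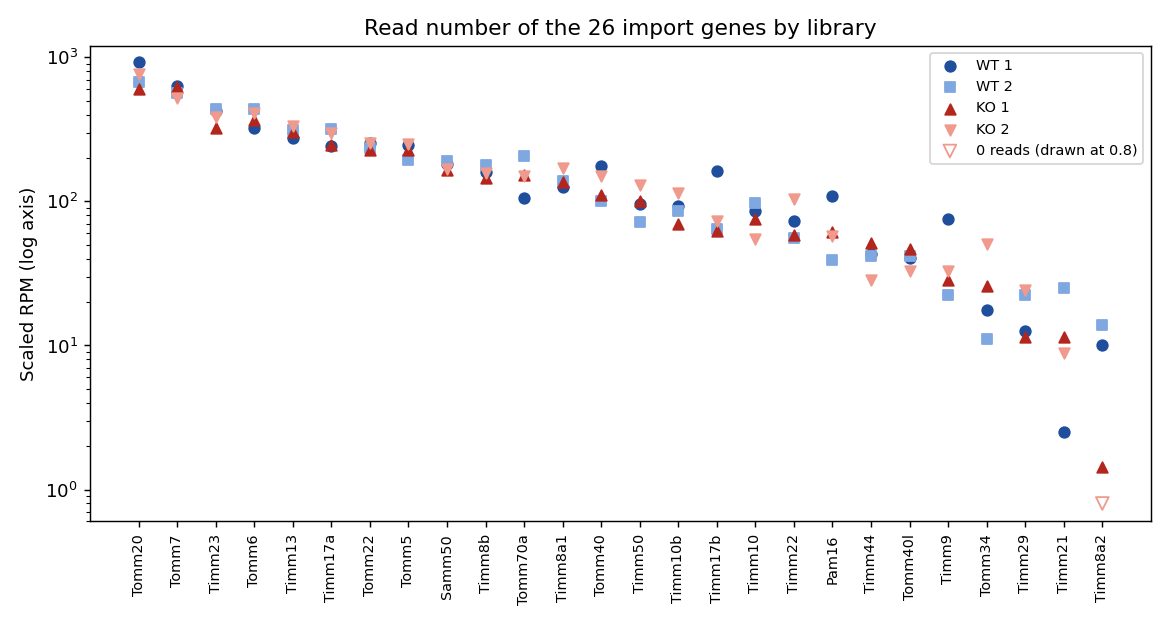
Scaled RPM (vertical axis, logarithmic) of all 26 import genes in the order of their mean, 1 point for each library; the open point is Timm8a2 in KO 2, which had 0 reads. Tomm20 and Tomm7 are highest. WT 1 lies well above the other libraries for Timm17b, Pam16 and Timm9, and by a smaller ratio for others such as Tomm20 and Tomm40.

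For 3 members the assignment of reads to the symbol is uncertain. Reads on the transcripts of Tomm6 carried the symbol Tomm6 in 731 cases and Gm21981 in 560. Both sets had alike tails, with medians of 95.8, 120.3, 120.7 and 121.1 nt for Tomm6 and 91.9, 114.3, 117.0 and 122.4 nt for Gm21981 in WT 1, WT 2, KO 1 and KO 2. Gm9803, listed as a pseudogene in RefSeq, held 152 reads on transcripts that also had reads of Pam16, which had 126 in all. Of these, 100 lay on ENSMUST00000057649.7, where Pam16 had only 31 reads. On the main transcript of Pam16, ENSMUST00000014445.6, Pam16 had 94 reads and Gm9803 52. Gm9797, also listed as a pseudogene, held 21 reads on those of Timm8a1, which had 272. Apart from these, other symbols had single reads on transcripts of the members.

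Several members were read as 1 transcript: Tomm20, Tomm7, Tomm70a, Samm50, Timm10, Timm17a, Timm22, Timm29, Timm8a2 and Timm8b each had 1 transcript with all of their reads. Tomm6 was the only member with more than 1 transcript of at least 20 reads in every library. Its main transcript, ENSMUST00000113302.9, held 63.3% of its reads and had median tails of 96.8, 115.2, 118.8 and 127.8 nt, and ENSMUST00000143789.4, with 30.6% of reads, had 88.7, 128.1, 123.3 and 114.9 nt. The second was longer in WT 2 and KO 1 and shorter in WT 1 and KO 2, so the transcripts did not differ beyond their spread. The low value of Tomm6 in WT 1 was present in both transcripts and in the reads of Gm21981.

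The genotypes were then compared gene by gene for tail length, with limma on log2 median tails over all 1935 genes. None of the 18 import genes passed a Benjamini-Hochberg adjusted p of 0.05, and of all genes 0% passed. At an unadjusted p under 0.05, 1 of the 18 was found, Timm22, against 2.33% of all genes. The 18 genes split evenly, with 9 higher and 9 lower in KO and a median log2 change of -0.04; over all genes the median was 0.01 and 51.8% were higher. With KO 1 left out only 5 of the 18 were higher, and with KO 2 left out 11 were. The replicate SD of the median was 0.10.

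The tails of Timm22 averaged 129.5 nt ± 13.8 in WT and 90.5 nt ± 8.10 in KO (SD, n = 2 each). The log2 change was -0.52 ± 0.22 (SE; limma, unadjusted p = 0.0168, adjusted p = 0.9998; adjusted p from 0.4367 to 0.9999 over the alternatives). Leaving out 1 library at a time gave values between -0.63 and -0.41. With the mean of log2 tail length in place of the median it was -0.26. Its level was 64.3 scaled RPM ± 12.4 in WT and 81.1 ± 32.0 in KO (SD, n = 2), which overlapped.

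Libraries of the 2 genotypes did not overlap in 5 of the 18 genes. Timm50, Tomm22 and Tomm6 were higher in both KO libraries (16.7%, against 14.7% of all genes), and Timm13 and Timm22 were lower in both (11.1%, against 11.8%), so the shares were near those of all genes. The log2 changes were 0.19 ± 0.18 (SE) for Timm50, 0.17 ± 0.14 for Tomm6, 0.11 ± 0.15 for Tomm22 and -0.14 ± 0.14 for Timm13, with an adjusted p of 0.9998 for each (limma). WT 1 set the size for Timm50 and Tomm6: they came to 0.05 and 0.01 in its absence and to 0.34 each in the absence of WT 2. The remaining 13 genes lay between -0.18 for Tomm20 and 0.08 for Tomm7. For Tomm20, the gene with the most reads, the 95% interval of the log2 change was -0.42 to 0.06, and for Tomm7 it was -0.17 to 0.33. The change of Tomm20 was -0.33 without WT 1 and -0.02 without WT 2. At this number of libraries, 23% of simulated log2 changes of 0.5 and 80% of those of 1 were found among 1935 genes. The simulation changed many genes at once and drew noise from each gene's own spread between replicates, itself estimated from these few libraries. The shares hold for that setting and need not be the power of the fit reported.

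**Figure D4:**
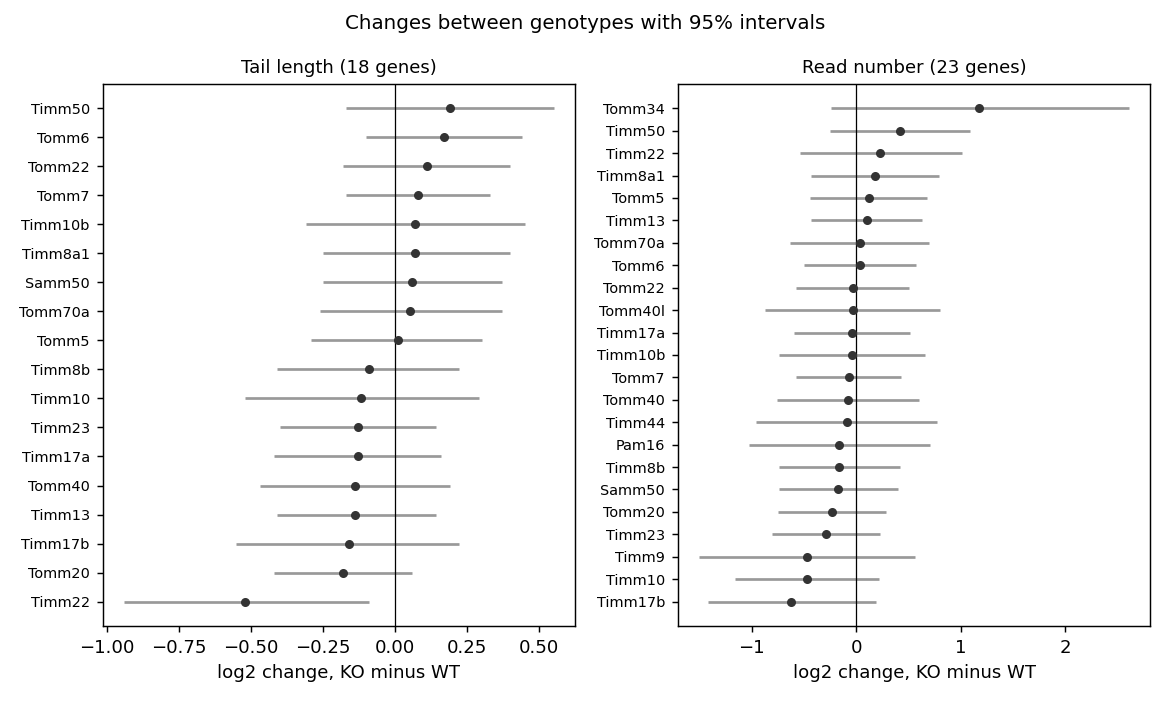
Log2 change between genotypes (KO minus WT, horizontal axis) for median tail length in 18 genes (left) and read number in 23 genes (right), ordered by size; points are limma estimates and bars their 95% intervals. For tail length the interval of Timm22 alone leaves out 0, and for read number all intervals include 0; no gene passed the adjusted threshold.

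Read number was compared with limma's voom over the 4815 genes that averaged 10 reads or more, 23 of the 26 members among them. None of the 23 passed an adjusted p of 0.05 (0% of all genes), and none had an unadjusted p under 0.05, which 10.3% of all genes had. The median log2 change was -0.04, with 8 genes higher and 15 lower in KO, beside -0.01 and 49.4% higher over all genes. When libraries were scaled by total reads the median of all genes moved to 0.11 and that of the 23 genes to 0.07, with 15 of them higher. Without WT 1, 14 were higher. In simulated reads 12% of log2 changes of 1 and 78% of those of 2 were found among 4815 genes. The simulation gave every gene and both genotypes the same spread between replicates beyond counting error. In the data this spread was larger in WT than in KO, so the shares need not be the power of this comparison.

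Non-overlapping libraries were seen for Timm50 and Tomm34, higher in KO (8.70%, against 19.4% of all genes), and for Samm50, Timm10, Timm23 and Timm8b, lower in KO (17.4%, against 21.3%). Timm50 had 95.8 and 72.3 scaled RPM in WT and 99.9 and 130.2 in KO, a log2 change of 0.42 ± 0.32 (SE), and lay between 0.22 (without WT 2) and 0.64 (without KO 1) when 1 library was left out. Timm23 had 421.0 and 436.3 in WT and 323.9 and 383.9 in KO, a log2 change of -0.29 ± 0.25 (SE). Neither change passed the test (limma, adjusted p = 0.6744 and 0.7247). With all libraries Tomm34 had the largest log2 change, 1.18 ± 0.68 (SE, limma, adjusted p = 0.5755), from 7 and 4 reads in WT and 18 and 23 in KO; it ranged from 0.76 without KO 2 to 1.74 without KO 1.

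WT 1 stood apart for 3 members of low or middle level. For how many of all genes it did so was not counted, so this is not shown to be particular to the import genes. Timm17b had 161.3 scaled RPM in WT 1 and 63.9, 62.8 and 72.8 in WT 2, KO 1 and KO 2. Its log2 change was -0.62 with all libraries (limma, adjusted p = 0.6006), 0.06 without WT 1 and -1.26 without WT 2. Timm9 had 75.6 scaled RPM in WT 1 and from 22.2 to 33.1 in the others. The log2 change of Timm9 was -0.47 with all libraries (limma, adjusted p = 0.7898), 0.40 without WT 1 and -1.30 without WT 2. Pam16 had 108.4 in WT 1 and from 38.9 to 61.4 in the others, with a log2 change of -0.16 (limma, adjusted p = 0.9233; from 0.1277 to 0.9997 over the alternatives), which was 0.59 without WT 1 and -0.86 without WT 2. With the reads of Gm9803 added, a choice made after seeing the data, both WT libraries (234.5 and 147.3 scaled RPM) lay above both KO libraries (125.6 and 97.1). The log2 change was then -0.74 (limma, adjusted p = 0.417). Most of the added reads lay on a transcript where Gm9803 had more reads than Pam16, so this level may not be that of Pam16.

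The deposited table also places gene symbols in 3 classes of the authors, and how these were defined is not given in the sources used here. Of the 26 import genes, 11 were in the class headed Mov10 minus m6A (m6A is methylated adenosine), 12 in that headed Mov10 non-target, 3 in no class and 0 in that headed Mov10 plus m6A. Among all symbols the shares were 20.7% for minus m6A, 42.5% for non-target and 14.9% for plus m6A. The shares moved with read number: of the 1935 genes with enough reads for a tail value, 37.2% were minus m6A and 30.03% non-target, and of the 18 import genes among them 9 and 7 were. With a tail value, the minus m6A class held Tomm20, Tomm22, Tomm70a, Tomm5, Tomm7, Timm23, Timm17a, Timm17b and Samm50. The non-target class with a tail value held Timm22, Timm10b, Timm50 and the small TIM genes Timm10, Timm13, Timm8a1 and Timm8b. The 9 minus m6A genes with a tail value had library medians of 99.6 and 103.5 nt in WT and 114.9 and 96.0 nt in KO; the 7 non-target genes had 110.8 and 110.1 nt in WT and 102.7 and 94.9 nt in KO. The minus m6A genes were lower than the non-target genes in both WT libraries and higher in both KO libraries, where KO 2 showed little separation. Over all 1935 tested genes the minus m6A class was above the non-target class in all 4 libraries, with 101.6 against 100.2, 109.7 against 107.5, 110.3 against 108 and 102.1 against 100.5 nt. The difference among the import genes was not tested.

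Other genes of the pathway were taken from a list of 35: matrix chaperones, presequence peptidases, the disulfide relay, metaxins and the MICOS complex (which shapes the inner membrane), insertases and related genes. All 35 had reads, 18 were tested for tail length and 29 for read number, and none passed an adjusted p of 0.05 in either test. For tail length 9 were higher and 9 lower in KO, with a median log2 change of 0.01. Their average tails, from 80.7 nt for Grpel1 (a cofactor of the mitochondrial Hsp70, named after its value was seen) to 124.8 nt for Mtch2, spanned a wider range than those of the 18 import genes. Hspa9, the mitochondrial Hsp70 that drives the motor, had 106.4 and 115.5 nt in WT and 113.3 and 106.5 nt in KO. Pmpcb, a subunit of the peptidase that removes presequences, had 80.4 and 84.4 nt in WT and 97.5 and 90.9 nt in KO, a log2 change of 0.19 ± 0.18 (SE) that did not pass. In the tail length test the lowest unadjusted p-values of the list were those of Gfer, the oxidase of the disulfide relay (-0.33 ± 0.20), Mtx2, a metaxin (0.26 ± 0.22), Chchd3, of MICOS (-0.19 ± 0.17), and Pmpcb.

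For read number, 9 of the 29 pathway genes were higher and 20 lower in KO, with a median log2 change of -0.17, beside 49.4% higher and a median of -0.01 over all genes. Libraries did not overlap in 3 that were higher (10.3%, against 19.4% of all genes) and 9 that were lower (31%, against 21.3%). The smallest unadjusted p-values belonged to the outer membrane insertase Mtch2 (log2 change -0.69 ± 0.30, SE), the chaperonin Hspd1 (0.60 ± 0.34), Aifm1, which works with the disulfide relay (-0.71 ± 0.42), and Mtx2 (-0.51 ± 0.33). Mtch2 had 461.3 and 294.6 scaled RPM in WT and 289.7 and 176.5 in KO (limma, unadjusted p = 0.0319, adjusted p = 0.4489; from 0.003847, without WT 2, to 0.9978 over the alternatives). Hspd1 had 358.0 scaled RPM in WT 1 and 1033.7, 827.6 and 1025.9 in WT 2, KO 1 and KO 2, so WT 1 stood apart as it did for Timm17b, Timm9 and Pam16, but on the low side (limma, adjusted p = 0.5626; from 1.08e-05, without WT 2, to 0.9978 over the alternatives; its sign turned without WT 1). The 95% intervals of Hspa9 (-0.27 ± 0.26), Pmpcb (-0.27 ± 0.31) and Chchd4, the receptor of the disulfide relay (0.28 ± 0.40), included 0. Timmdc1, whose name resembles those of the members but whose protein serves complex I assembly, had 5 to 12 reads in each library.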

How the data were processed

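Total RNA selected on oligo(dT) beads was sequenced directly on nanopores, per the labels' protocols, with barcoded adapters joining the libraries. minimap2 2.20 is named in the submitters' processing notes; the tail length tool, annotation and read filters are not given in the sources used here. The authors deposited a table with 1 row per read: tail length in nt, transcript, symbol, library and gene classes. Of 1903922 reads, 3 with a tail of 0 were left out. It has no column of counts, so reads were counted here per symbol and library. Tail length was tested with limma 3.58.1 (R 4.3.3) on log2 median tails of genes with at least 20 reads in each library. For read number, genes that averaged 10 reads or more entered limma's voom after 0.5 was added to each number and libraries were scaled by the median of ratios. Both used Benjamini-Hochberg adjustment over all genes tested and were tested on simulated data. Intervals of medians are exact binomial, at 95%, and cover counting error only. Depth was 351133 to 683239 reads per library. Replicates differed beyond sampling noise (chi-square per degree of freedom 5.37 in WT and 2.16 in KO), so none was merged. Every member was named. Of the other pathway genes, the 4 with the smallest unadjusted p in each test were named, with Hspa9, Chchd4, Pmpcb and Timmdc1. Grpel1 was added after its value was seen. The members and lists were chosen with earlier results of these data known. Alternatives covered summaries, minimums, scaling, weights, the replicate block and each library left out. All 26 symbols matched a gene ID.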

Additional observations from a re-analysis of the deposited data

How the results depend on the processing

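No import gene passed the adjusted threshold with all 4 libraries under any scaling, filter or summary tried, for tail length or read number (limma). Over all genes, 1 passed for tail length with a minimum of 10 reads in each library. For read number, 7 passed with scaling by total reads, 43 with scaling by the upper quartile, 96 with no filter on read number and 1 with 1 read added, against 0 in the design reported. With the replicate number as a replicate block, 66 genes passed for read number and 0 for tail length, and no import gene in either. Deviations of same-numbered libraries correlated at 0.01 for tail length and 0.02 for reads. Whether same-numbered libraries shared a culture or a preparation cannot be told from these values. With 1 library left out, 0 to 2 genes passed for tail length and 0 to 367 for read number (367 without WT 2, 50 without WT 1), the import genes that passed numbered 0 for tail length and 0 to 2 for read number, and those higher in KO numbered 5 to 11 and 9 to 14. The lone library of a genotype was then assumed to vary like the others. Scaling by total reads put 15 import genes higher, with a median of 0.07.

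Signs of small log2 changes depended on the settings, and the cause was not tested. Tail length: Tomm5 was -0.04 with the mean of log2 tail length, and Timm8a1 was -0.01 with the most read transcript only. Read number, scaling by total reads: Timm10b 0.07, Timm17a 0.08, Timm44 0.02, Tomm22 0.08, Tomm40 0.02, Tomm40l 0.08 and Tomm7 0.05. With the upper quartile the values were Timm10b 0.03, Timm17a 0.02, Tomm22 0.03 and Tomm40l 0.02, and with a mean of at least 50 reads Timm17a and Tomm22 were both 0.02. With 1 library left out, 10 of 18 tail changes took the other sign at least once, with ranges of Samm50 -0.05 to 0.17, Timm10 -0.26 to 0.03, Timm10b -0.07 to 0.22, Timm17b -0.44 to 0.12, Timm23 -0.27 to 0.01, Timm8a1 -0.06 to 0.21, Timm8b -0.25 to 0.07, Tomm5 -0.06 to 0.07, Tomm7 -0.04 to 0.20 and Tomm70a -0.08 to 0.18. For read number 15 of 23 did, with ranges of Pam16 -0.86 to 0.59, Timm10b -0.37 to 0.35, Timm17a -0.24 to 0.16, Timm17b -1.26 to 0.06, Timm22 -0.14 to 0.69, Timm44 -0.54 to 0.26, Timm9 -1.30 to 0.40, Tomm20 -0.45 to 0.001, Tomm22 -0.11 to 0.06, Tomm40 -0.48 to 0.33, Tomm40l -0.30 to 0.18, Tomm5 -0.05 to 0.30, Tomm6 -0.18 to 0.25, Tomm7 -0.19 to 0.05 and Tomm70a -0.44 to 0.50. Depth limits the 8 genes under the minimum for tail length.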
